A study of Rattus norvegicus with 9 samples.

Results

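miR-21 was followed on both arms of its hairpin, miR-21-5p and miR-21-3p, in small RNA libraries of rat cartilage progenitor cells. They are the rows rno-miR-21-5p and rno-miR-21-3p, taken by name, 2 of 726 miRNA rows in the deposited table. The cells were wild-type primary cultures from condylar cartilage, and total RNA was sequenced from 1 end after ligation of adaptors to both ends of the small RNA. The control group, P3, was cultured to passage 3. The second group, P9, was cultured to passage 9 as a model of replicative senescence, and the third, FFSS, consisted of passage 3 cells under flow fluid shear stress. Each group had 3 libraries. The labels do not state how long or how strong the flow was, how old the animals were, or whether replicates are separate cultures. Each p-value below therefore reflects the spread among these libraries alone, and that spread may be technical.

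miR-21 is a vertebrate miRNA whose gene lies beside or within that of the vacuole membrane protein Vmp1, and its transcription is known to respond to AP-1, STAT3 and NF-kB. Drosha and Dicer cut the hairpin to a duplex of both arms. Argonaute keeps a strand of the duplex as guide, which pairs through its seed (bases 2 to 8) with target mRNAs, and the other strand is mostly degraded. miR-21-5p is the usual guide, with Pdcd4 and Reck among its known targets, and it is known as a miRNA of fibroblast activation, fibrosis and inflammation.

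The mature sequences are shown because the deposited table counts each arm in a row of its own. They are RefSeq sequences on GRCr8, another build than the Rnor_6.0 named in the submitters' processing notes. Capitals mark the seed.
miR-21-5p: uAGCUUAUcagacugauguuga
miR-21-3p: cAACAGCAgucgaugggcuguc
The hairpin lies at chr10:71902600-71902691 on the minus strand of GRCr8, where Vmp1 is the next gene at higher coordinates and Tubd1 the next at lower ones. It is printed with both arms in capitals, the 5p arm at positions 18 to 39 (chr10:71902653-71902674) and the 3p arm at 56 to 77 (chr10:71902615-71902636), counted from 1 at its 5′ end.
Mir21 hairpin: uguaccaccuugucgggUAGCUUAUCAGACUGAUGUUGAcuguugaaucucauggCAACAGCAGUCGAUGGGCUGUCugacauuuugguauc
The arms are 22 bases each, with 36.4% G and C in the 5p arm and 59.1% in the 3p arm. In the lowest-energy fold that RNAfold gave for the hairpin (-42.6 kcal/mol), 19 of the 22 bases of the 5p arm were paired with the 3p arm, all 7 seed bases among them. Among 693 rat mature miRNA names in the RefSeq table, 0 others had the seed of miR-21-5p and 0 others that of miR-21-3p. The closest other mature sequence stood 8 mismatches from either arm, at offsets of up to 2 bases. The 91 rows of the deposited table with a predicted name have no sequence here and were not compared.

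The libraries held 2878910 to 8862560 miRNA reads, and FFSS replicates 1 and 3 were the shallowest. P9 replicate 3 stood apart from its group: over log2(CPM + 1) of all rows it correlated with P9 replicates 1 and 2 at 0.977 and 0.981, below its 0.985 with P3 replicate 2, while P9 replicates 1 and 2 correlated with each other at 0.996. FFSS replicate 1, the shallowest library, also stood apart from its group. It correlated with FFSS replicates 2 and 3 at 0.977 and 0.982, while these correlated with each other at 0.992. The chondrocyte miRNAs miR-140 and miR-455 were present in each library, at a summed 4150 to 7370 CPM (the count divided by the library total and scaled to a common total) in P3, 2590 to 3847 in P9 and 6077 to 7202 in FFSS. Of the markers of other cell types, 0 of each list were at 0 in all libraries. The 5 mesenchymal markers summed to 123696 to 135424 CPM in P3, 165042 to 249573 in P9 and 88414 to 144624 in FFSS. In P9 against P3, 2 of the 5 had a positive and 3 a negative log2 fold change (median -0.23). Only miR-143-3p was called higher there, with a mean of 62078 CPM in P3 and 154434 in P9, so the sum does not describe the list as a whole.

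Several marker lists differed between groups in summed CPM. The 2 endothelial markers were higher in each FFSS library (556 to 695 CPM) than in any P3 (386 to 406) or P9 library (275 to 491). Against P3, FFSS libraries were also higher without overlap for the liver marker (15.5 to 51.4 against 9.87 to 11.7 CPM), the 4 red blood cell markers (154 to 573 against 69.5 to 150) and the 5 muscle markers (189 to 538 against 141 to 158). Of all miRNAs tested, 41.5% did not overlap in FFSS against P3 and 42.8% in P9 against FFSS. In FFSS against P3, 0 tested markers of these 4 lists were called, against 20.5% of all miRNAs tested (6.83% higher and 13.7% lower). By contrast, 1 of 4 tested leukocyte markers and 2 of 4 tested nervous system markers were called higher there. P9 had 3.43 to 22.9 CPM of the liver marker, 65.9 to 299 of the red blood cell markers and 151 to 534 of the muscle markers, overlapping FFSS. The 7 epithelial markers had 81.1 to 102 CPM in P3, 25.2 to 77.7 in P9 and 90.4 to 226 in FFSS, and all 6 that were tested had a positive log2 fold change in FFSS against P3, of which 1 passed the test. The 7 nervous system markers overlapped in all groups, at 746 to 1566, 993 to 2424 and 624 to 1653 CPM in P3, P9 and FFSS. Leukocytes are also rich in miR-21-5p, and the 5 leukocyte markers had 222 to 259 CPM in P3, 348 to 460 in P9 and 151 to 362 in FFSS. In P9 against P3, 2 of the 4 tested leukocyte markers had a positive and 2 a negative log2 fold change (median 0.07). Of these, 0 were called, against 7.29% of all miRNAs tested, so this sum does not describe the list as a whole either. miR-155-5p, a member of the list, had a mean of 1931 reads over the 9 libraries. P9 replicate 3 had the highest muscle value of its group, 534 CPM against 167 and 151, the highest nervous system value, 2424 against 1011 and 993, and the lowest epithelial value, 25.2 against 77.7 and 75.4. FFSS replicate 1 gave the upper end of the FFSS range for the endothelial, liver, red blood cell, muscle, epithelial and leukocyte markers. For the nervous system markers it gave the lower end. The part of such cells or RNA in the miR-21 values was not tested. In these bulk samples fewer cells with miR-21 and less of it per cell cannot be told apart.

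miR-21-5p was the most abundant miRNA over the 9 libraries, and its share of the reads was lowest under shear stress. It made up 17.0%, 17.1% and 22.6% of the miRNA reads in P3 replicates 1, 2 and 3. The 3 passage 9 libraries had 27.5%, 31.8% and 18.6%. The 3 shear stress libraries had 12.7%, 12.0% and 7.34%. The 95% Wilson intervals of these shares were at most 0.0769 percentage points wide and cover counting error only, so the spread between libraries is far larger than the counting error. P9 replicates 1 and 2 lay above each P3 library, whereas P9 replicate 3 lay between P3 replicates 2 and 3. All FFSS libraries lay below all P3 and all P9 libraries. As group means, the share was 25.95% ± 6.76 in P9, 18.9% ± 3.23 in P3 and 10.7% ± 2.90 in FFSS (SD, n = 3).

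**Figure D1:**
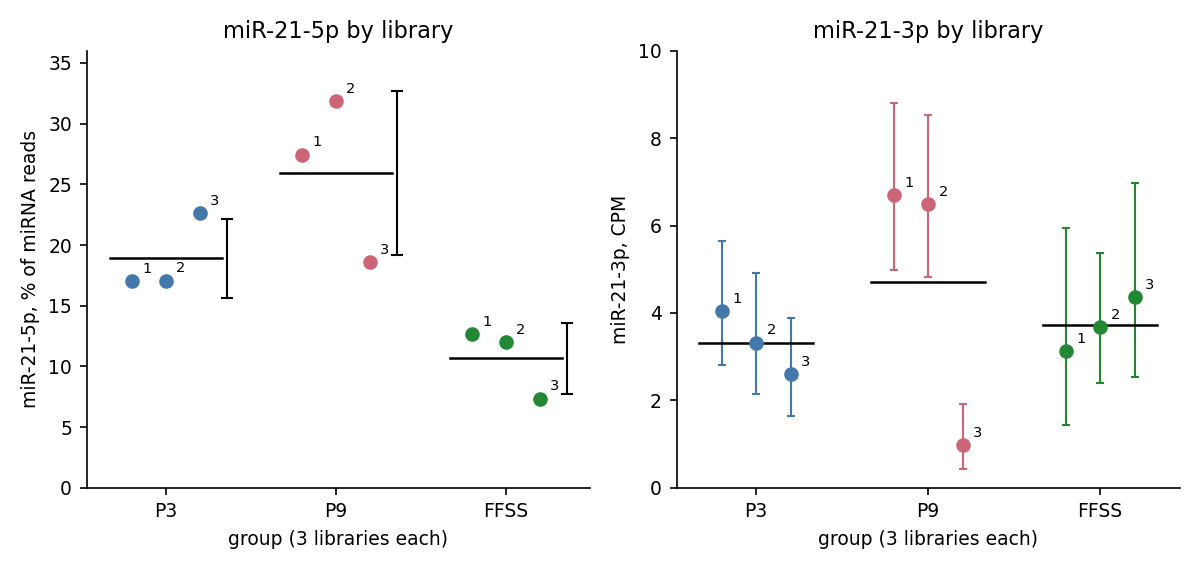
Left, miR-21-5p as a percentage of all miRNA reads, and right, miR-21-3p in CPM, for each library of P3, P9 and FFSS. Numbers beside points are replicate numbers, horizontal lines group means, black bars on the left the SD (n = 3), and bars on the right 95% Poisson intervals of single libraries. The FFSS points lie below all others for miR-21-5p, and P9 replicate 3 is the lowest point for miR-21-3p at 0.978 CPM.

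Counts were compared with edgeR's quasi-likelihood test over 439 miRNAs, with libraries scaled by TMM, a trimmed mean of log ratios, and Benjamini-Hochberg adjustment. miR-21-5p differed between the senescence and the shear stress groups. It was 2.54-fold higher in P9 than in FFSS (log2 fold change 1.35, SE 0.32, adjusted p = 0.00613). P9 and FFSS differed in both passage number and flow, so this comparison cannot separate passage from flow. The part of each in the difference was not tested. In that comparison 34.4% of all miRNAs tested were called, made up of 22.6% higher and 11.8% lower, and 46.0% had an unadjusted p under 0.05. By p miR-21-5p ranked 76 of 439. Its P9 and FFSS libraries did not overlap, as for 42.8% of all miRNAs. The call held without any single library, with log2 fold changes of 1.10 to 1.67 and adjusted p of 0.00131 to 0.0204.

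Against the P3 control, neither comparison of miR-21-5p passed. Under shear stress the log2 fold change was -0.85 (SE 0.32, unadjusted p = 0.0196, adjusted p = 0.0730 in edgeR's test), while 20.5% of all miRNAs were called and 36.2% had an unadjusted p under 0.05. The FFSS and P3 libraries did not overlap for miR-21-5p, as for 41.5% of all miRNAs. The value crossed the threshold without P9 replicate 3 (-0.89, adjusted p = 0.0300), which is not in the comparison but enters the shared spread, and without FFSS replicate 1 (-1.15, adjusted p = 0.0322). It did so too with no filter on low counts (-0.98, adjusted p = 0.0157) and in limma on log2(TPM + 1) (-0.85, adjusted p = 0.0468). Without FFSS replicate 3, the library with the smallest share of miR-21-5p, it was -0.60 (adjusted p = 0.191). At passage 9 the log2 fold change was 0.50 (SE 0.32, adjusted p = 0.477), while 7.29% of all miRNAs were called and 17.3% had an unadjusted p under 0.05. For miR-21-5p the groups overlapped, whereas 25.3% of all miRNAs did not overlap. Without P9 replicate 3 it was 0.66 (SE 0.32, adjusted p = 0.232). Both comparisons use the same P3 libraries. The order of the levels was thus P9, P3 and FFSS, and of its 3 pairs P9 and FFSS differed past the test.

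**Figure D2:**
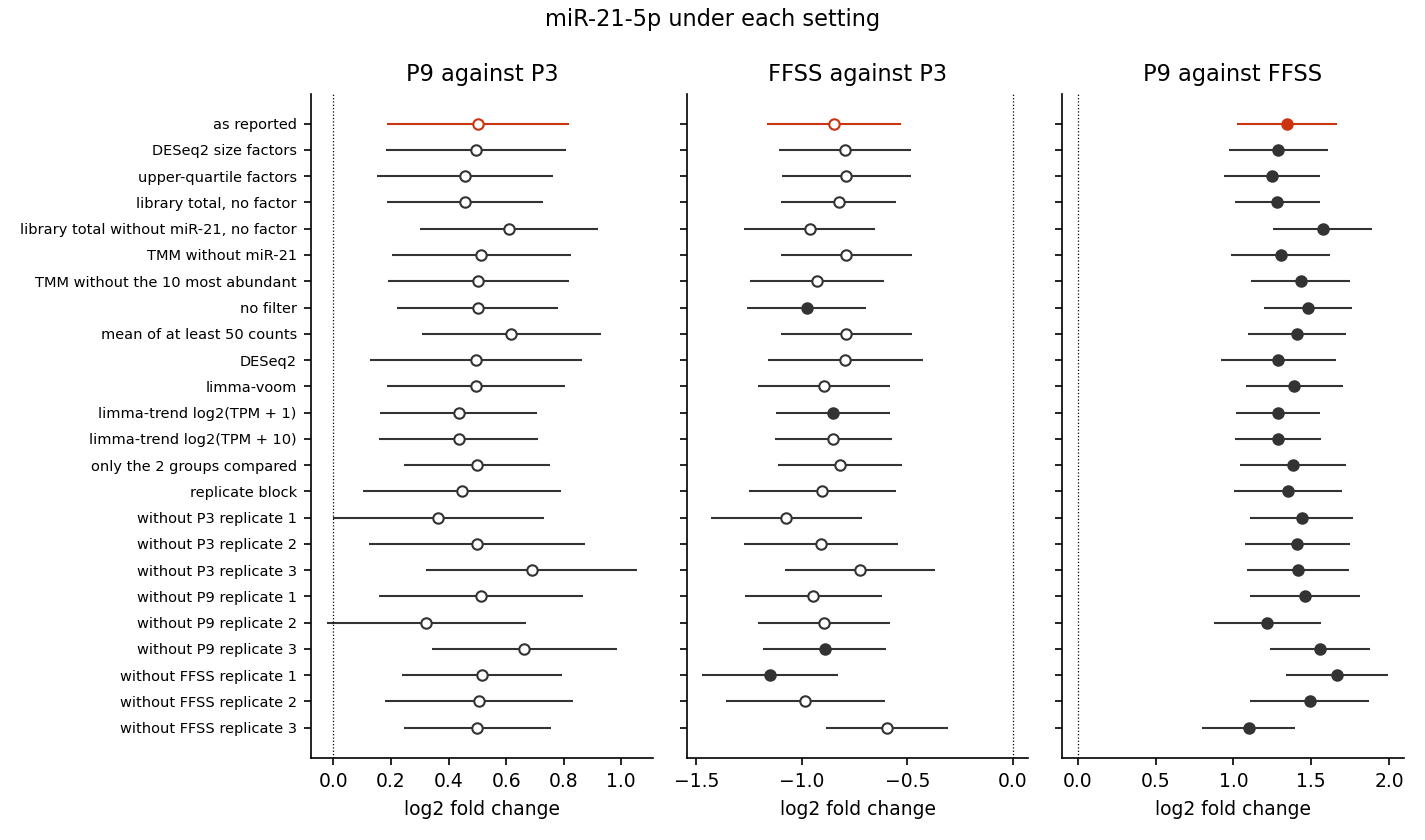
Log2 fold change of miR-21-5p (x axis) with its SE in each comparison, as reported (red) and under each other setting (y axis). Filled points have an adjusted p under 0.05. Every point of P9 against FFSS is filled, 4 of FFSS against P3 are, and 0 of P9 against P3.

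The standing of miR-21-5p among the abundant miRNAs also changed from group to group. Its rank by reads was 1 in P3 replicates 1 and 3 and in all P9 libraries, 2 in P3 replicate 2 and in FFSS replicates 1 and 2, and 3 in FFSS replicate 3. Where it was not first, miR-148a-3p was first, a miRNA known to target the DNA methyltransferase Dnmt1. The ratio to the most abundant other miRNA needs no scaling between libraries. miR-21-5p had 1.29, 0.889 and 1.59 times the reads of miR-148a-3p in P3. In FFSS it had 0.587, 0.807 and 0.388 times. In P9 the most abundant other miRNA was miR-143-3p in replicates 1 and 2, at 1.54 and 2.10 times, and miR-148a-3p in replicate 3, at 1.19 times. miR-21-5p thus had fewer reads than miR-148a-3p in each FFSS library and more in each P9 library. The sequence of miR-148a-3p, with its seed in capitals, is printed to show that it shares no seed with either arm of miR-21.
miR-148a-3p: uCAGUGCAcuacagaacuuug

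Of the other abundant miRNAs, only miR-143-3p passed the test with TMM scaling. After miR-21-5p, the 10 with the highest mean share comprised miR-148a-3p and miR-143-3p, then miR-99a-5p, miR-27b-3p and miR-199a-3p. The rest were the let-7 members let-7c-5p, let-7i-5p and let-7f-5p, and miR-3596d. let-7f-5p and miR-3596d had nearly the same counts in each library, so their reads cannot be assigned to either. Another such pair was let-7d-5p and miR-3596b, at a mean of 3005.35 and 3005.28 CPM. Whether reads of such pairs were counted in both rows, and so entered the library totals more than once, was not tested. Among the 10, miR-143-3p, which is abundant in mesenchymal cells, was called in P9 against P3 (log2 fold change 1.35, SE 0.24, adjusted p = 0.00348). miR-143-3p and miR-21-5p were called in P9 against FFSS, and 0 of the 10 in FFSS against P3, where edgeR gave miR-21-5p the smallest p of the 10 and the only unadjusted p under 0.05. DESeq2 did not call miR-21-5p there either (adjusted p = 0.0945). Over all miRNAs tested, 7.29% were called in P9 against P3, 34.4% in P9 against FFSS and 20.5% in FFSS against P3. When the 10 most abundant miRNAs were taken anew in each library, they held 66.8% to 75.7% of its reads. The 9 of them other than miR-21-5p held 43.9% in P9 replicate 2 and 59.4% in FFSS replicate 3, the libraries with the largest and smallest share of miR-21-5p.

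**Figure D3:**
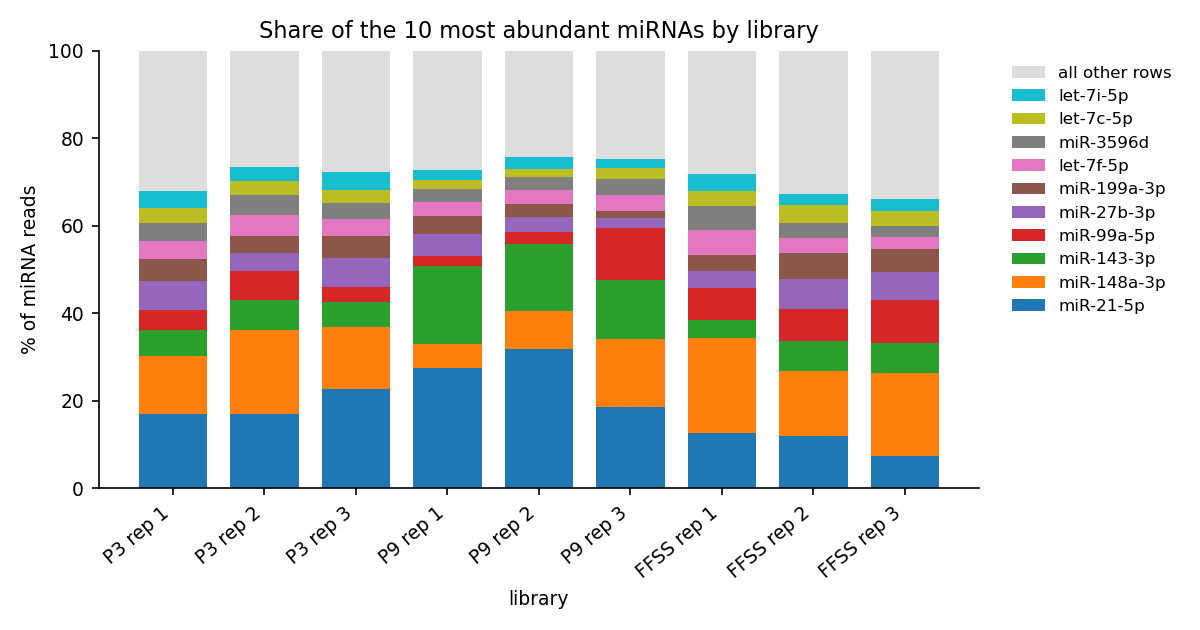
Percentage of miRNA reads (y axis) held by each of the 10 most abundant miRNAs in each library (x axis), stacked with miR-21-5p at the bottom and all other rows in grey. The miR-21-5p segment is 31.8% in P9 replicate 2 and 7.34% in FFSS replicate 3.

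miR-21-3p, the arm that is mostly degraded, was near the lower end of what these libraries can measure. It had 34, 25 and 23 reads in P3, which were 4.04, 3.32 and 2.60 CPM. Passage 9 libraries had 51, 51 and 8 reads, or 6.70, 6.48 and 0.978 CPM. Shear stress libraries had 9, 26 and 17 reads, or 3.13, 3.67 and 4.36 CPM. P9 replicates 1 and 2 were the highest libraries and P9 replicate 3 the lowest, so P9 overlapped both other groups. A count of 0 would have allowed up to 1.04 CPM in FFSS replicate 1, the shallowest library, and 0.339 CPM in P3 replicate 3, the deepest (3 reads of the total).

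The libraries of P3 and FFSS differed in miR-21-3p by about as much as counting error gives. The SD between libraries was 1.14 times the SD expected from counting alone in P3 and 0.651 times in FFSS, against 4.16 times in P9. The group means were 3.32 ± 0.724 CPM in P3, 4.72 ± 3.24 in P9 and 3.72 ± 0.620 in FFSS (SD, n = 3). In edgeR's test the log2 fold change was 0.54 (SE 0.54, adjusted p = 0.678) in P9 against P3 and 0.13 (SE 0.56, adjusted p = 0.892) in FFSS against P3. In P9 against FFSS it was 0.41 (SE 0.55, adjusted p = 0.590). Without P9 replicate 3 the passage 9 value was 1.01 (SE 0.36, adjusted p = 0.0867) and that of P9 against FFSS 0.95 (SE 0.38, adjusted p = 0.0511). Without P9 replicate 2 they were 0.19 and 0.14, without P9 replicate 1 both were 0.27, and limma-voom on all libraries gave 0.18 and 0.01. No comparison of miR-21-3p passed in any of these fits, and its size in P9 turned on which P9 library was left out.

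The hairpin was the most one-sided of those measured. Per read of miR-21-3p there were 42051, 51354 and 87197 reads of miR-21-5p in P3. The corresponding ratios were 40986, 49104 and 189817 in P9, and 40558, 32672 and 16827 in FFSS. miR-21-3p thus made up between 5.27e-04% and 0.00594% of the reads of the hairpin. Among 89 hairpins with a mean of at least 20 reads on each arm, miR-21 had the largest log2 ratio of 5p to 3p reads, at a mean of 15.54 over the 9 libraries. let-7i followed at 12.54, miR-100 at 9.62 and miR-30d at 9.54, all of them also with more 5p reads. miR-29a had the largest ratio the other way, at -9.37. The median absolute log2 ratio of the 89 was 2.81, and 51 hairpins had more 5p and 38 more 3p reads. These counts include miR-3590 and miR-130a, whose mean counts mirrored each other. They were 200.6 on 5p and 47.7 on 3p for miR-3590, and 48.0 on 5p and 200.6 on 3p for miR-130a. The minimum on each arm leaves out hairpins with a still rarer second arm, so the rank holds only among these 89.

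The 5p arm of miR-21 starts with U and the 3p arm with C, the bases that argonaute proteins are known to favour and disfavour at the 5′ end of a guide. Of the 79 hairpins with RefSeq sequences for both arms, the arm with more reads started with U in 34 and the arm with fewer reads in 19. C was the first base of the arm with more reads in 14 and of the arm with fewer in 23. miR-21 and let-7i, the first and the second by ratio, both had U on the abundant and C on the rare arm. Among the hairpins that followed, miR-100 had A on the abundant and C on the rare arm, and miR-191a had C and G. The part of the first base in the arm ratio was not tested.

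The arm ratio was lower in each FFSS library than in any P3 or P9 library. With 0.5 added to each count, the log2 ratio was 15.34, 15.62 and 16.38 in P3. The P9 libraries had 15.31, 15.57 and 17.45, and the FFSS libraries 15.23, 14.97 and 14.00. The gap was narrow, between 15.23 in FFSS replicate 1 and 15.31 in P9 replicate 1. FFSS replicate 1 had 9 reads of the 3p arm, so counting error alone could close it. How many of the 89 hairpins did not overlap was not counted. Group means were 15.78 ± 0.54 for P3, 16.11 ± 1.17 for P9 and 14.73 ± 0.65 for FFSS (SD, n = 3). In limma over the 89 hairpins, the difference of FFSS from P3 was -1.05 (SE 0.57, adjusted p = 0.219), where 4.49% of the hairpins were called and 31.5% had an unadjusted p under 0.05. The value of P9 against FFSS was 1.38 (SE 0.57, unadjusted p = 0.0340, adjusted p = 0.150), where 7.87% were called and 27.0% had an unadjusted p under 0.05. The value of P9 against P3 was 0.33 (SE 0.57, adjusted p = 0.989 in limma), where 0.0% were called and 2.25% had an unadjusted p under 0.05. Neither non-overlapping comparison of miR-21 passed, and the two-sided exact permutation test over libraries gave p = 0.1 for each, the smallest that 3 against 3 allows.

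The arm ratio of the P9 group depended on P9 replicate 3. There the 5p arm stood at 18.6% of the reads, within the range of P3, while the 3p arm was below every other library, in the P9 library that stood apart from its group over all rows. Without this library, P9 against P3 turned to -0.34 (SE 0.43, adjusted p = 0.890) and P9 against FFSS fell to 0.71 (SE 0.43, adjusted p = 0.208). FFSS against P3 then passed at -1.05 (SE 0.39, adjusted p = 0.0441) with a smaller SE. Without FFSS replicate 3 that difference was -0.68 (adjusted p = 0.540). The ratio rests on 8 to 51 reads of the 3p arm per library, which limits its precision.

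**Figure D4:**
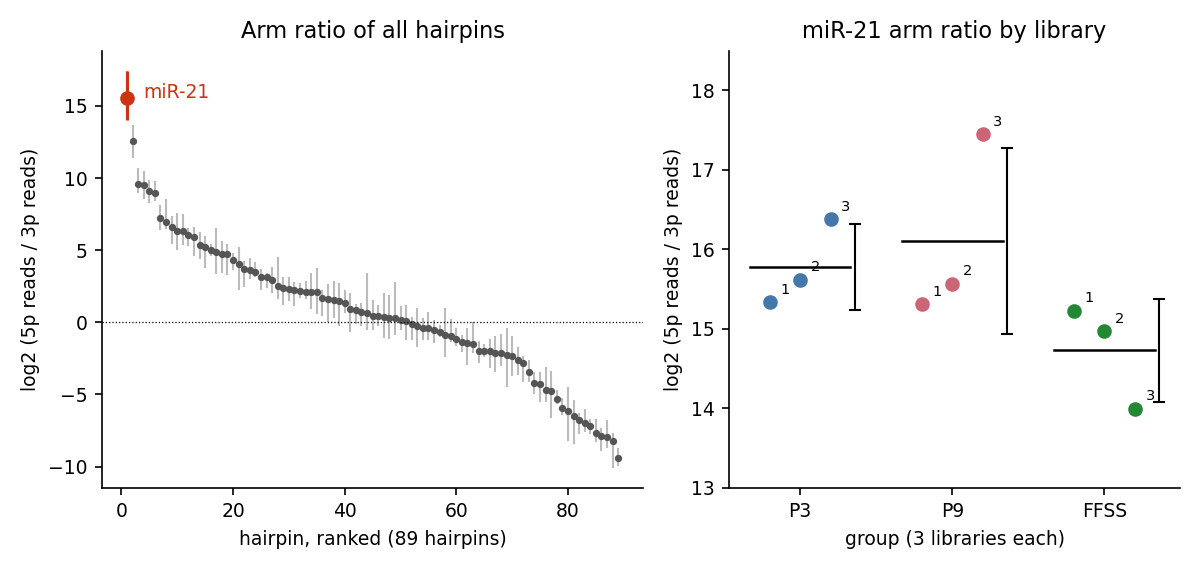
Left, mean log2 ratio of 5p to 3p reads (y axis) of 89 hairpins ranked from the highest (x axis), with vertical lines from the lowest to the highest library. miR-21 is marked in red at 15.54. Right, the same ratio of miR-21 in each library, with group means and SD (n = 3); the FFSS libraries lie between 14.00 and 15.23.

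Since miR-21-5p took between 7.34% and 31.8% of a library, it also set part of the scale for all other miRNAs. When the library total is the denominator, each other miRNA is lowered by the share that miR-21-5p takes. Taking its reads out of the total raised the CPM of every other miRNA by 20.5%, 20.6% and 29.2% in the P3 libraries. The rise was 37.8%, 46.7% and 22.8% in the P9 libraries and 14.5%, 13.6% and 7.92% in the FFSS libraries. The factor was therefore largest in P9 replicates 1 and 2 and smallest in FFSS, with no overlap of FFSS and the other groups.

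Between groups, the share of miR-21-5p moved all other miRNAs together by a fixed amount under this scaling. The mean log2 of the remaining share was -0.30 in P3, -0.44 in P9 and -0.16 in FFSS. Other miRNAs were shifted by -0.13 in P9 against P3 (two-sided exact permutation p = 0.2), by 0.14 in FFSS against P3 (p = 0.1, exact) and by -0.27 in P9 against FFSS (p = 0.1, exact). The smallest p that 3 against 3 libraries allow is 0.1. As linear changes these shifts are -8.90%, 10.2% and -17.3%. Without P9 replicate 3 the shift of P9 against P3 was -0.20, and without P9 replicate 2 it was -0.08.

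Of the 10 most abundant miRNAs, miR-21-5p shifted the rest the most in FFSS against P3 and in P9 against FFSS. In FFSS against P3 the next in size was miR-148a-3p, whose share shifted the rest by -0.05. In P9 against FFSS miR-143-3p gave -0.15 and miR-148a-3p 0.14. In P9 against P3 miR-143-3p gave -0.15, slightly more than miR-21-5p, and miR-148a-3p 0.09. With all 10 taken out, the shift was -0.17 for P9 against P3, 0.14 for FFSS against P3 and -0.31 for P9 against FFSS. These values lay close to those of miR-21-5p alone.

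TMM scaling did not use miR-21-5p directly. With P9 replicate 3 as reference, the trimming of abundant and of strongly differing rows left it out in 8 of 8 library comparisons, and 148 to 160 rows set the factors. The factors ran from 0.897 to 1.18. Computing them without both arms of miR-21 changed the reference to P3 replicate 3 and moved the scale of a library by at most 0.10 on the log2 scale, in FFSS replicate 1. The median log2 fold change of the 437 other miRNAs with TMM was 0.06 in P9 against P3, 0.02 in FFSS against P3 and 0.01 in P9 against FFSS. With the library total it was 0.01, 0.07 and -0.08. With the library total less miR-21 it was 0.15, -0.08 and 0.20.

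**Figure D5:**
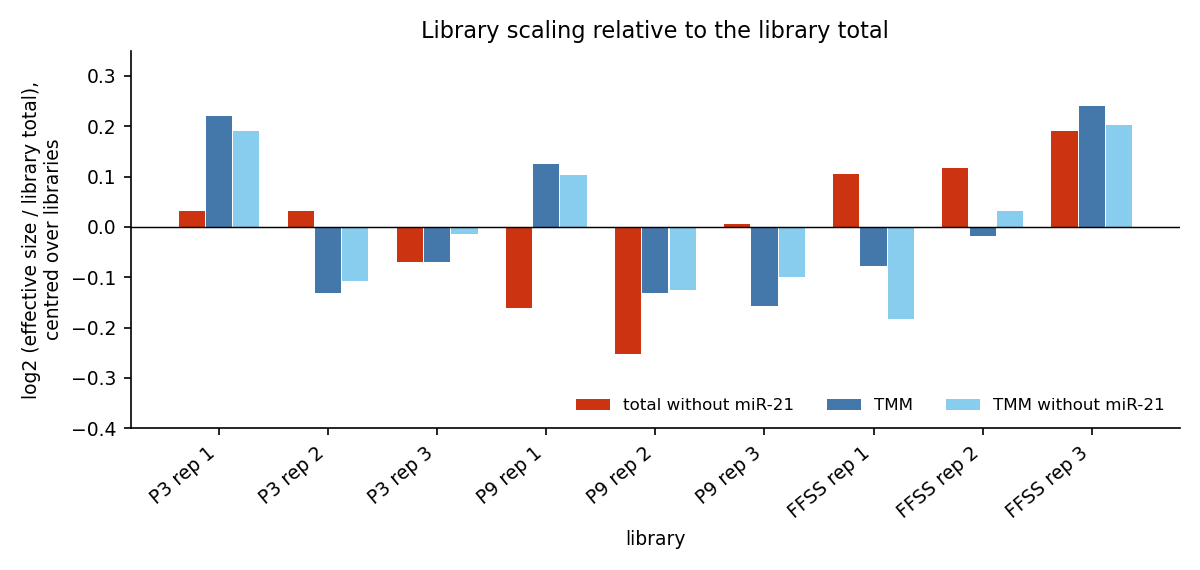
Effective size of each library relative to its total (y axis, log2, centred over the 9 libraries) for the total without both arms of miR-21 (red), TMM (dark blue) and TMM without miR-21 (light blue). Red bars are above 0 in all FFSS libraries and at -0.16 and -0.25 in P9 replicates 1 and 2.

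The calls on the other miRNAs changed with this choice mainly in the comparisons with FFSS. In FFSS against P3, 30 others were higher and 60 lower with TMM. The library total gave 26 higher and 44 lower, and the total less miR-21 gave 15 higher and 58 lower. Of the 70 called with the library total and the 73 called with the total less miR-21, 59 were shared. In P9 against FFSS there were 98 higher and 52 lower with TMM, 91 and 69 with the library total, and 105 and 30 with the total less miR-21. In P9 against P3 the counts were 17 and 15, 15 and 16, and 18 and 15.

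For single abundant miRNAs the choice was of the size of the shift. miR-148a-3p in P9 against FFSS was -0.89 with the library total (adjusted p = 0.0482), -0.64 with the total less miR-21 (adjusted p = 0.129) and -0.74 with TMM (adjusted p = 0.143), so it passed only with the first of these. miR-143-3p in P9 against P3 was 1.31, 1.46 and 1.35 under the same settings and passed in each. miR-21-5p itself in P9 against FFSS was 1.28 with the library total, 1.57 with the total less miR-21 and 1.30 with TMM computed without miR-21, and it passed in each.

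miRNAs whose levels followed miR-21-5p were ranked by Pearson correlation of log2 TMM-scaled CPM over the 9 libraries, among 180 others with a mean of at least 50 CPM. miR-542-3p came first (r = 0.93), then miR-7a-5p (0.93), miR-450a-5p (0.91), miR-221-5p (0.89) and miR-145-5p (0.88). These values describe 9 libraries that share their group structure and scaling. For miR-21-3p the highest were miR-34a-5p (0.72), miR-106b-5p (0.69), miR-107-3p (0.68), miR-30a-5p (0.62) and miR-93-5p (0.61), in which counting error of the 3p arm also enters. The arms of miR-21 followed each other weakly (r = 0.19, Spearman's rho 0.17, 9 libraries).

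Other miRNAs linked to the same pathways were called in both directions. Over all miRNAs, 3.87% were called higher and 3.42% lower in P9 against P3, and 6.83% higher and 13.7% lower in FFSS against P3. Among 11 tested miRNAs that stimuli such as NF-kB signalling induce, 3 were higher and 1 lower in P9 against P3 (median 0.88, against 0.06 over all miRNAs), and 4 were higher and 1 lower in FFSS against P3 (median -0.01, against 0.02 over all). miR-222-3p, which targets the cell cycle inhibitor p27, rose in P9 by 1.07 (SE 0.24, adjusted p = 0.0134), a call lost without P3 replicate 1 (adjusted p = 0.0730), 2 (0.0565) or 3 (0.0900).

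Of 17 tested miRNAs of TGF-beta signalling and fibrosis, 1 was higher and 0 lower in P9 against P3 (median 0.19), and 1 was higher and 1 lower in FFSS against P3 (median 0.21). miR-143-3p was the member that rose at passage 9. miR-145-5p, from the same cluster, fell under shear stress, from 5958 ± 581 CPM in P3 to 2047 ± 705 in FFSS (log2 fold change -1.57, SE 0.34, adjusted p = 0.00944). Both calls held without any single library.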

How the data were processed

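Per the file headers, the deposited table gives a read count and a TPM value for each miRNA in each of 9 libraries. The authors' TPM equalled the count divided by the library total on the same scale (CPM; largest difference 4.85e-05), with no length term. The submitters' processing notes list Bowtie, without a version, and the Rnor_6.0 build; counting program and annotation release: not given in the sources used here. Of 726 rows, filterByExpr kept 439. Counts were tested in 1 model of all 9 libraries with edgeR 4.0.16 (TMM, robust quasi-likelihood; R 4.3.3) at an adjusted p under 0.05, and arm ratios with limma 3.58.1. DESeq2 1.42.0 was an alternative, as were limma-voom, limma-trend, other scalings and filters, 2-group fits, a replicate block and leaving out each library. Fits were tested on simulated data. RNAfold was from ViennaRNA 2.7.2. RefSeq sequences matched 578 rows by name. Groups followed the labels. Named were both arms, the 10 most abundant miRNAs, miRNAs sharing a seed, the 5 most correlated with each arm, up to 4 per list by p, and up to 3 hairpins nearest in arm ratio; some named by that rule were given only in counts. The result of 1 list is not reported here. The members and lists were chosen with earlier results of these data known. Library totals bound the precision; intervals cover counting error only.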

Additional observations from a re-analysis of the deposited data

How the results depend on the processing

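For miR-21-5p, all 23 alternatives kept the direction in each comparison, and all kept the call in P9 against FFSS (1.10 to 1.67) and its absence in P9 against P3 (0.32 to 0.69, adjusted p of 0.232 to 0.794). In FFSS against P3 it ranged from -1.15 to -0.60 and passed with no filter (-0.98), on log2(TPM + 1) (-0.85), without P9 replicate 3 (-0.89) and without FFSS replicate 1 (-1.15). For miR-21-3p no comparison passed under 22 alternatives, which gave 0.12 to 1.01 in P9 against P3 and 0.01 to 0.95 in P9 against FFSS. Its FFSS against P3 value of 0.13 became -0.0018 with no filter, -0.077 without P3 replicate 3 and -1.30e-04 without P9 replicate 1. A mean of at least 50 counts removed miR-21-3p, and a mean of 200 counts on each arm removed the arm ratio, so neither gave a value. Leaving out libraries, the arm ratio ran from -0.34 to 0.73 in P9 against P3, from -1.30 to -0.68 in FFSS against P3, where -1.05 passed without P9 replicate 3, and from 0.71 to 1.78 in P9 against FFSS.

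Counts of called miRNAs moved more. Leaving out each library gave 8 to 26 higher and 7 to 25 lower in P9 against P3, 3 to 53 higher and 32 to 94 lower in FFSS against P3, and 78 to 123 higher and 28 to 80 lower in P9 against FFSS. The number higher in FFSS against P3 was 15 with the total less miR-21, 15 with no filter, 51 in a fit of 2 groups and 9 with the replicate block, and a minimum mean of 50 counts left 39 lower. The number lower in P9 against FFSS was 30 with the total less miR-21, 81 on log2(TPM + 10) and 28 in a fit of 2 groups.

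Equal replicate numbers did not pair libraries (correlations of deviations -0.47 to 0.12 for equal numbers, best with the own number in 5 of 18 cases). Unequal numbers gave -0.48 to 0.47. The highest were P3 replicate 3 with P9 replicate 1 (0.47) and P3 replicate 2 with P9 replicate 3 (0.46). A block by replicate number does not cover such pairs. With the replicate block miR-21-5p was 0.45, -0.90 and 1.35 (adjusted p = 0.629, 0.102 and 0.0117) for P9 against P3, for FFSS against P3 and for P9 against FFSS, and no call on either arm or on the ratio changed. The causes of these moves were not tested.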
